A study of Drosophila melanogaster with 15 samples.

Results

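The basement membrane is a thin sheet of extracellular matrix that lies under epithelia and around muscles, fat body and other organs of the fly. Laminin trimers, each built of an alpha, a beta and a gamma chain, form a first network on cell surfaces. Collagen IV trimers form a second, crosslinked network, and the proteoglycan perlecan and the glycoprotein nidogen tie the layers together. In flies, blood cells and the fat body secrete much of this material. The genes described here are the 2 collagen IV genes Col4a1 (CG4145) and vkg (CG16858), the laminin genes LanA (CG10236), LanB1 (CG7123) and LanB2 (CG3322), the perlecan gene trol (CG33950), the nidogen gene Ndg (CG12908), and the genes of the matrix-associated proteins SPARC (CG6378), peroxidasin (Pxn, CG12002) and papilin (Ppn, CG33103). These 10 genes were taken by identifier from 15139 genes in the deposited tables, where they have 27 listed transcripts.

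Messenger RNA was sequenced from SL2 cells, a male Drosophila line of embryonic origin that resembles blood cells, after 6 days of RNA interference (RNAi) at 25 °C. The 3 libraries were MSL2 RNAi, CLAMP RNAi and control RNAi, with 1 library each. MSL2 is a subunit of the MSL complex, which raises expression of the single male X chromosome, and CLAMP is a zinc finger protein whose role at X-linked genes the study examined. What the control RNAi was directed against is not given in the labels. The other 12 of the 15 samples, CLAMP immunoprecipitation and input DNA, were not analysed here. Each group being a single library, differences have no replicate check and no p-value, and "higher" and "lower" describe these libraries.

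The library totals used for scaling lay between 67844405 and 68301197. Clamp had an RPKM (reads scaled by transcript length and by the library total) of 19.8 in the CLAMP RNAi library, against 66.2 in control, and msl-2 had 5.16 in the MSL2 RNAi library, against 19.8 in control. Of 12 plasmatocyte-type blood cell markers, 11 had a mean RPKM of 1 or more, and the highest was Nplp2 with 1082 in MSL2 RNAi, 1828 in CLAMP RNAi and 2094 in control. The summed RPKM of these 12 was 1723, 2587 and 2820 in the same libraries. Most of that difference came from Nplp2, and the other 11 summed to 641 in MSL2 RNAi, 758 in CLAMP RNAi and 726 in control. Of the 11 with a mean RPKM of 1 or more, 2 were above control after MSL2 RNAi (median log2 ratio −0.20) and 7 after CLAMP RNAi (0.08). Of all 7485 genes at that level, 3491 were above control after MSL2 RNAi (median −0.02) and 2792 after CLAMP RNAi (−0.06). At 1.5-fold, Hml was higher in both comparisons with control, He lower in both, and Nplp2 lower after MSL2 RNAi. Over all 7485 genes, 2.53% were 1.5-fold higher and 5.32% lower after MSL2 RNAi, and 1.5% and 3.86% after CLAMP RNAi. He, picked after its values were seen, had an RPKM of 26.6 in MSL2 RNAi, 22.1 in CLAMP RNAi and 40.6 in control. Of 6 fat body markers, the other main source of these proteins in the fly, 0 reached a mean RPKM of 1, and their summed RPKM was 0.787, 0.559 and 0.574. The 4 crystal cell markers summed to 0.674, 0.679 and 1.27. Some markers of other cell types were present, led by msn of the lamellocyte list (80.8, 92.2 and 92.8), aub of the germline list (57.4, 52.1 and 59.6), moody of the glial list (12.7, 18.2 and 22.8), Mef2 of the muscle list (7.36, 8.05 and 7.88), elav of the neuronal list (5.41, 7.35 and 8.25) and sdt of the epithelial list (2.40, 1.62 and 3.02). Of these lists, 2 of 4 lamellocyte, 1 of 3 germline, 2 of 3 glial, 2 of 6 muscle, 2 of 5 neuronal and 3 of 4 epithelial markers had a mean RPKM of 1 or more. None of the markers had 0 reads in every library. Of those picked after their values were seen, atilla was at 0 in CLAMP RNAi and Lsp1alpha in both knockdown libraries. The part of such cells in the results was not tested. In such bulk RNA, fewer cells of a type and less RNA per cell cannot be told apart.

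Several matrix genes were among the most abundant messages of these cells. In rank of RPKM over all genes in control, SPARC was at place 62 and Col4a1 at 88, but Ppn at 3543 and Ndg at 11217. Together the 10 genes held 2.91% of the library total in MSL2 RNAi, 3.37% in CLAMP RNAi and 2.65% in control, which corresponds to 1975795, 2298992 and 1802098 reads. The collagen IV pair alone held 1.55%, 1.58% and 1.30%. Both knockdown libraries thus gave a larger share of reads to these genes than the control library, and the CLAMP RNAi library gave the largest. Each gene is represented below by the listed transcript with the most reads. For the 9 genes with a mean RPKM of 1 or more, the exact 95% counting interval of every read ratio lay within 2.11% of the ratio. These intervals cover counting error only, since reads are not independent molecules and no second culture was sequenced.

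**Figure D1:**
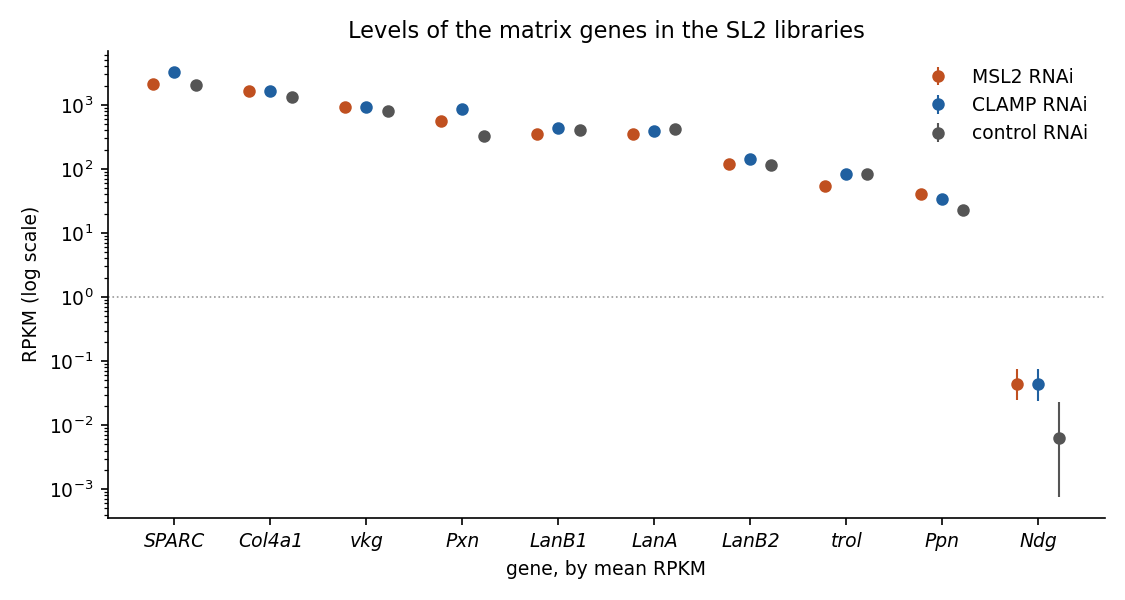
RPKM on a log axis of the 10 matrix genes, ordered by mean RPKM, in the MSL2 RNAi, CLAMP RNAi and control RNAi libraries of SL2 cells (1 library each). Bars are exact 95% Poisson intervals of the read count and are hidden by most points, and the dotted line marks an RPKM of 1. SPARC and Col4a1 lie highest in all 3 libraries, Pxn differs most among the 9 expressed genes, and Ndg lies below 0.05.

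Collagen IV was high in every library and somewhat higher in both knockdown libraries. Col4a1 encodes the alpha1 chain and had an RPKM of 1640 in MSL2 RNAi, 1668 in CLAMP RNAi and 1346 in control. The vkg gene, for viking, encodes the alpha2 chain and had 913, 939 and 796 in the same order. The knockdown libraries were close to each other and the control was the lowest for both genes. Read ratios to control were 1.22 after MSL2 RNAi and 1.24 after CLAMP RNAi for Col4a1, and 1.15 and 1.18 for vkg. The same control library stands under both ratios, so they are not independent. Of 7485 genes with a mean RPKM of 1 or more, 727 had a higher log2 ratio than Col4a1 after MSL2 RNAi and 1289 a higher one than vkg. After CLAMP RNAi these were 342 and 536. Col4a1 and vkg are direct neighbours on arm 2L with 0 genes between them in the Release 6 annotation. Their relative level moved little, with a Col4a1 to vkg RPKM ratio of 1.80 in MSL2 RNAi, 1.78 in CLAMP RNAi and 1.69 in control.

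The laminin chain genes did not all move together. LanA, on arm 3L, encodes the main laminin alpha chain of the fly and had an RPKM of 353 in MSL2 RNAi, 384 in CLAMP RNAi and 412 in control. LanB1, on 2L, encodes the only beta chain and had 351, 436 and 406. LanB2, on 3L, encodes the only gamma chain and had 119, 142 and 114. LanA and LanB1 were thus lowest after MSL2 RNAi, and LanB2 was lowest in control. LanA was highest in control, whereas LanB1 and LanB2 were highest after CLAMP RNAi. The log2 ratios to control after MSL2 RNAi were −0.22 for LanA, −0.21 for LanB1 and 0.06 for LanB2. After CLAMP RNAi they were −0.10, 0.10 and 0.32. Each of these 6 ratios stayed within 1.5-fold.

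Although a laminin trimer takes each chain in equal number, the messages were not equal. The RPKM of LanA was 2.96 times that of LanB2 in MSL2 RNAi, 2.69 times in CLAMP RNAi and 3.60 times in control. LanA and LanB1 were nearly level, at ratios of 1.01, 0.879 and 1.01. Their order cannot be set in control or MSL2 RNAi, because the other listed LanB1 transcript had an RPKM of 422 in control and 366 in MSL2 RNAi, above LanA in each. The gene wb (wing blister), which encodes the other laminin alpha chain of the fly, was far lower, at 7.74, 12.2 and 11.9. A pair of older gene models covers wb, and the one with more reads is given.

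The linker genes of the sheet contrasted with each other. The X-linked trol encodes perlecan, a large heparan sulfate proteoglycan, and had an RPKM of 54.9 in MSL2 RNAi, 82.9 in CLAMP RNAi and 84.4 in control. It was lower in the MSL2 RNAi library than in either other library. Its read ratio to control was 0.651 after MSL2 RNAi and 0.983 after CLAMP RNAi. Ndg, on arm 2R, encodes nidogen, which binds laminin and collagen IV. It had 14 reads in MSL2 RNAi, 14 in CLAMP RNAi and 2 in control, or an RPKM of 0.044, 0.044 and 0.0063. Nidogen message was therefore at most a trace in libraries where its laminin and collagen partners were abundant. The MSL2 RNAi library gave a read ratio of Ndg to control of 7.02 (exact 95% counting interval 1.61 to 63.6) and the CLAMP RNAi library 6.97 (1.60 to 63.2), on so few reads that the ratio is poorly determined. Ndg also overlaps CG34222 in the Release 6 annotation. It falls below the level filter (a mean RPKM of 1) and enters a median or count only where the dependence on that filter is described.

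The matrix-associated genes differed most. SPARC, on arm 3R, encodes a small calcium- and collagen-binding glycoprotein that fly cells need for normal collagen IV deposition. Its RPKM was 2142 in MSL2 RNAi, 3241 in CLAMP RNAi and 2013 in control. The CLAMP RNAi library stood apart from the others, which were close. Read ratios to control were 1.06 after MSL2 RNAi and 1.61 after CLAMP RNAi.

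Pxn, on arm 3L, encodes peroxidasin, the heme peroxidase that forms the sulfilimine crosslinks between collagen IV molecules. It had an RPKM of 564 in MSL2 RNAi, 860 in CLAMP RNAi and 326 in control, or 202789, 311011 and 117456 reads. Both knockdown libraries were above control, and CLAMP RNAi was above MSL2 RNAi. The read ratio to control was 1.73 after MSL2 RNAi and 2.64 after CLAMP RNAi. In the Release 6 annotation Pxn overlaps CG16986 and 3 long noncoding RNA genes, and the use of strand in counting is not given, so reads of these genes cannot be told apart. In rank of RPKM over all 15139 genes, Pxn was at place 131 in MSL2 RNAi, 105 in CLAMP RNAi and 189 in control.

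Ppn, on arm 3R, encodes papilin, a proteoglycan-like glycoprotein of the basement membrane related to ADAMTS proteases. It was the least abundant of the 9 expressed genes, at an RPKM of 40.1 in MSL2 RNAi, 33.5 in CLAMP RNAi and 23.0 in control. The order of the knockdown libraries was the reverse of that for Pxn. Read ratios to control were 1.75 after MSL2 RNAi and 1.46 after CLAMP RNAi.

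The order of levels per length in control was SPARC, Col4a1, vkg, LanA, LanB1, Pxn, LanB2, trol, Ppn and Ndg. In both knockdown libraries Pxn stood above LanA and LanB1. Among genes with a mean RPKM of 1 or more, Col4a1 exceeded 99.0% in MSL2 RNAi, 99.0% in CLAMP RNAi and 98.8% in control, while Ppn exceeded 73.2%, 68.0% and 52.7%. The gaps between neighbours in this order have no replicate spread to be set against.

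After CLAMP RNAi, 2 of the 9 expressed matrix genes, Pxn and SPARC, were at least 1.5-fold higher than in control, and 0 of 9 were at least 1.5-fold lower. Over all 7485 genes with a mean RPKM of 1 or more, 1.5% were 1.5-fold higher and 3.86% lower. Among the 3878 genes with a mean RPKM of 20 or more, a level that the 9 matrix genes all exceed, 0.464% were higher and 1.19% lower. Log2 ratios, computed on RPKM plus 0.1, were 1.40 for Pxn, 0.69 for SPARC, 0.54 for Ppn, 0.32 for LanB2, 0.31 for Col4a1, 0.24 for vkg, 0.10 for LanB1, −0.02 for trol and −0.10 for LanA. Of the 3878 genes, 1 had a higher log2 ratio than Pxn, 13 a higher one than SPARC and 24 a higher one than Ppn. At 2-fold, 1 of 9 (Pxn) was higher and 0 of 9 lower, where all genes gave 0.588% and 1.16%. The matrix genes had a median of 0.31, against −0.06 over all genes and −0.02 over those at an RPKM of 20 or more. The genes were chosen with results of these libraries known, so these counts describe them and test nothing.

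After MSL2 RNAi, 2 of 9 were at least 1.5-fold higher, namely Ppn and Pxn, and 1 of 9, trol, was at least 1.5-fold lower. The call of trol rests on its transcript with the most reads, RF, since the other 6 of its 7 listed transcripts lay between −0.58 and −0.57 and missed the rule, as did the mean over transcripts (−0.58). Over all genes 2.53% were higher and 5.32% lower, and at an RPKM of 20 or more these were 0.799% and 3.02%. Ppn stood at a log2 ratio of 0.80, Pxn at 0.79, Col4a1 at 0.29, vkg at 0.20, SPARC at 0.09 and trol at −0.62. At 2-fold, 0 of 9 were higher and 0 of 9 lower, where all genes gave 0.588% and 0.975%. The median of the 9 was 0.09, against −0.02 over all genes and 0.01 at an RPKM of 20 or more. Among the 3878 genes at the higher level, 8 had a higher log2 ratio than Ppn and 9 a higher one than Pxn.

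Set directly against each other, without the control library, MSL2 RNAi over CLAMP RNAi gave 3 of 9 genes at least 1.5-fold lower and 0 of 9 higher. Over all genes 3.62% were lower and 4.24% higher, and at an RPKM of 20 or more 2.22% and 1.42%. At 2-fold, 0 of 9 were lower and 0 of 9 higher, where all genes gave 1.11% and 1.66%. The lower ones were Pxn at a log2 ratio of −0.61, SPARC at −0.60 and trol at −0.59, all just past the rule. Of the 7 listed transcripts of trol, RB missed it at −0.48. The median of X-linked genes in this comparison was −0.27. LanB1 was at −0.31, LanB2 at −0.26 and LanA at −0.12. Collagen IV differed little here, at −0.02 for Col4a1 and −0.04 for vkg. Ppn, at 0.26, was the only one of the 9 with a higher value after MSL2 RNAi. The median was −0.26, against 0.05 over all genes.

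**Figure D2:**
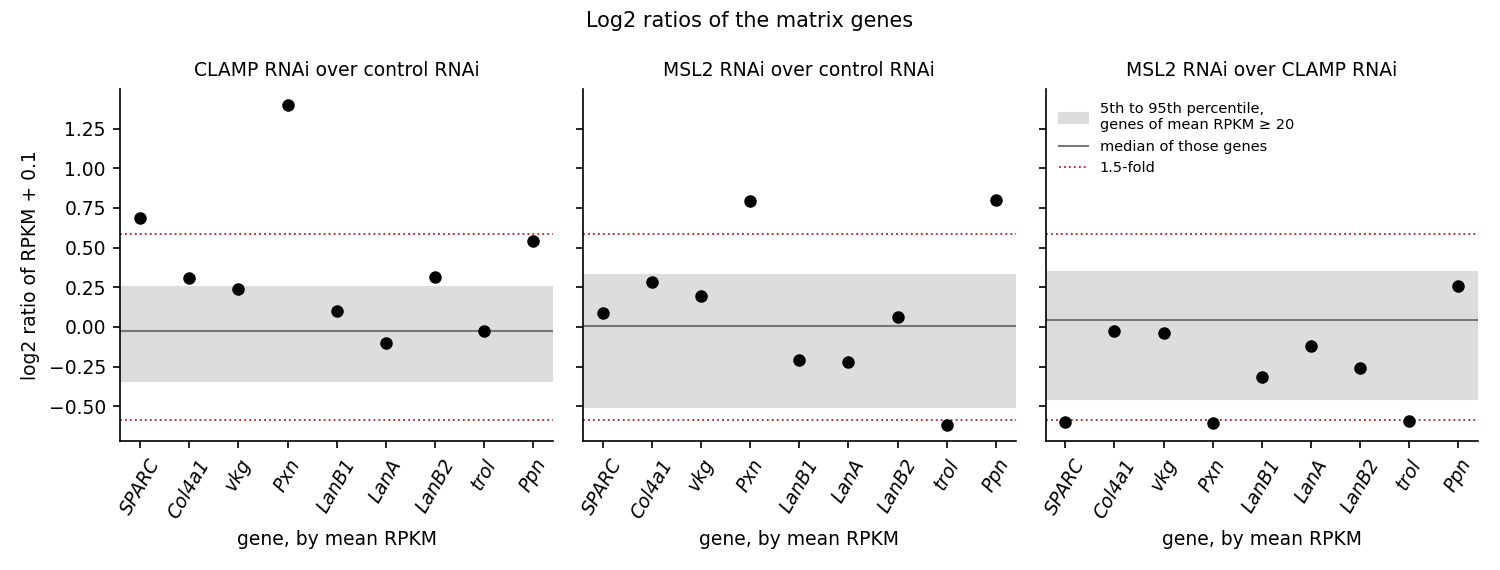
Log2 ratio of RPKM plus 0.1 of the 9 expressed matrix genes, ordered by mean RPKM, in each comparison of libraries. The grey band runs from the 5th to the 95th percentile of the 3878 genes with a mean RPKM of 20 or more, the grey line is their median and dotted lines mark 1.5-fold. Pxn (1.40) and SPARC (0.69) lie above the upper dotted line after CLAMP RNAi, and Ppn (0.80) and Pxn (0.79) after MSL2 RNAi, where trol (−0.62) lies below the lower one.

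The X-linked trol was lower than most X-linked genes after MSL2 RNAi. Over 1292 X-linked genes with a mean RPKM of 1 or more, the median log2 ratio to control was −0.33, and trol at −0.62 differed from it by −0.29. A lower ratio than that of trol was found for 156 of them, or 12.1%, and for 60 of 619, or 9.69%, at an RPKM of 20 or more. These shares are for transcript RF. The other 6 listed transcripts of trol lay between −0.58 and −0.57, and their shares were not computed. On the 4 major autosomal arms the median was 0.03. After CLAMP RNAi, trol (−0.02) was close to the X-linked median (−0.05), with 56.8% of X-linked genes lower. The other 8 expressed matrix genes are autosomal.

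**Figure D3:**
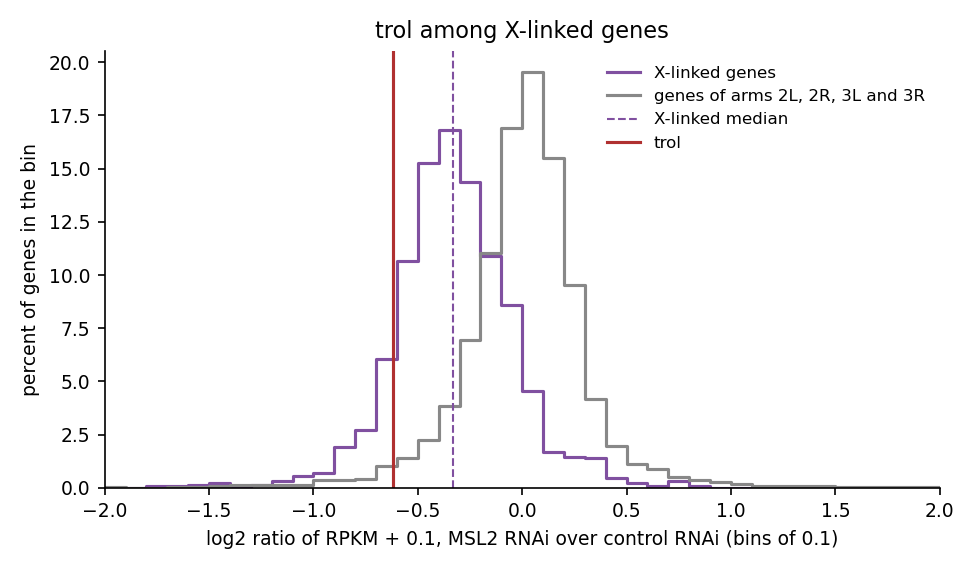
Distribution of log2 ratios of RPKM plus 0.1, MSL2 RNAi over control RNAi, in bins of 0.1, as percent of the 1292 X-linked genes and of the 6062 genes of arms 2L, 2R, 3L and 3R with a mean RPKM of 1 or more. The solid vertical line is trol (−0.62, its transcript with the most reads, RF) and the dashed line the X-linked median (−0.33). This transcript lies in the lower flank of the X-linked genes.

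Several matrix genes have transcripts of different length, and their listed transcripts mostly gave one answer. The 3 transcripts of Col4a1 all had log2 ratios of 0.31 after CLAMP RNAi and 0.29 after MSL2 RNAi. For the 5 of Pxn the values lay between 1.40 and 1.44 after CLAMP RNAi and between 0.72 and 0.79 after MSL2 RNAi. For the 4 of Ppn they lay between 0.51 and 0.54 and between 0.73 and 0.80. The 7 of trol ranged from −0.62 to −0.57 after MSL2 RNAi, where RF alone passed the 1.5-fold rule, and from −0.11 to 0.02 after CLAMP RNAi. Reads of shared exons were counted for each transcript, so these values are not independent of each other.

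Reads that a longer transcript holds beyond a shorter one give a view of the sequence that differs between them, if the shorter is contained in the longer. Transcript structures were not used here to check this, and the pairs were chosen after their values were seen. In trol, transcript RF, of 14206 bases, has 1143 bases more than RE. It held 3011 more reads than RE in MSL2 RNAi, 4846 more in CLAMP RNAi and 7133 more in control. This difference was largest in control and smallest after MSL2 RNAi. Against control, these extra reads had a ratio of 0.423 in MSL2 RNAi (exact 95% counting interval 0.406 to 0.442), beside 0.673 for RE itself. In CLAMP RNAi the ratio was 0.677 (0.652 to 0.702), beside 1.01 for RE.

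Another stretch of trol differed the other way after CLAMP RNAi. Transcript RC has 2707 bases more than RB and held 12157 more reads in MSL2 RNAi, 22653 more in CLAMP RNAi and 17635 more in control. The ratio of these reads to control was 1.28 after CLAMP RNAi (1.25 to 1.31), against 0.929 for RB (0.918 to 0.940). After MSL2 RNAi it was 0.691 (0.675 to 0.708), against 0.667 for RB (0.658 to 0.676). Not all listed transcripts of trol nest, since RG, of 12640 bases, had more reads in each library than the longer RC. In control these were 74685 and 74356 reads. Whether RE lies within RF, RB within RC and the bases of RC beyond RB within RF was not checked. If all of this holds, the total of trol after CLAMP RNAi is a sum of parts on opposite sides of control in these libraries. That total was close to control.

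For Pxn and Ppn the parts moved the same way, whereas for LanB1 they lay on opposite sides of control after CLAMP RNAi. Here too it was not checked whether the shorter transcript lies within the longer. If it does not, these differences in reads describe no single stretch of sequence. The reads of Pxn transcript RA beyond the short RB had ratios to control of 1.75 after MSL2 RNAi and 2.62 after CLAMP RNAi, and those of RB were 1.65 and 2.72. Read density differed, with 62.5, 94.0 and 35.8 extra reads per extra base of RA in MSL2 RNAi, CLAMP RNAi and control. For RB these were 15.1, 25.0 and 9.18 reads per base. For Ppn, the reads of RB beyond RC had ratios of 2.01 (1.93 to 2.10) and 1.59 (1.52 to 1.66), above the 1.67 and 1.43 of RC. In LanB1, the 301 bases of RA beyond RB held 1196, 1732 and 2059 reads, or 0.806%, 0.932% and 1.20% of the reads of RA. The MSL2 RNAi ratio of these reads to control was 0.583 (0.542 to 0.626) and the CLAMP RNAi one 0.838 (0.786 to 0.894), below the 0.868 and 1.08 of RB.

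**Figure D4:**
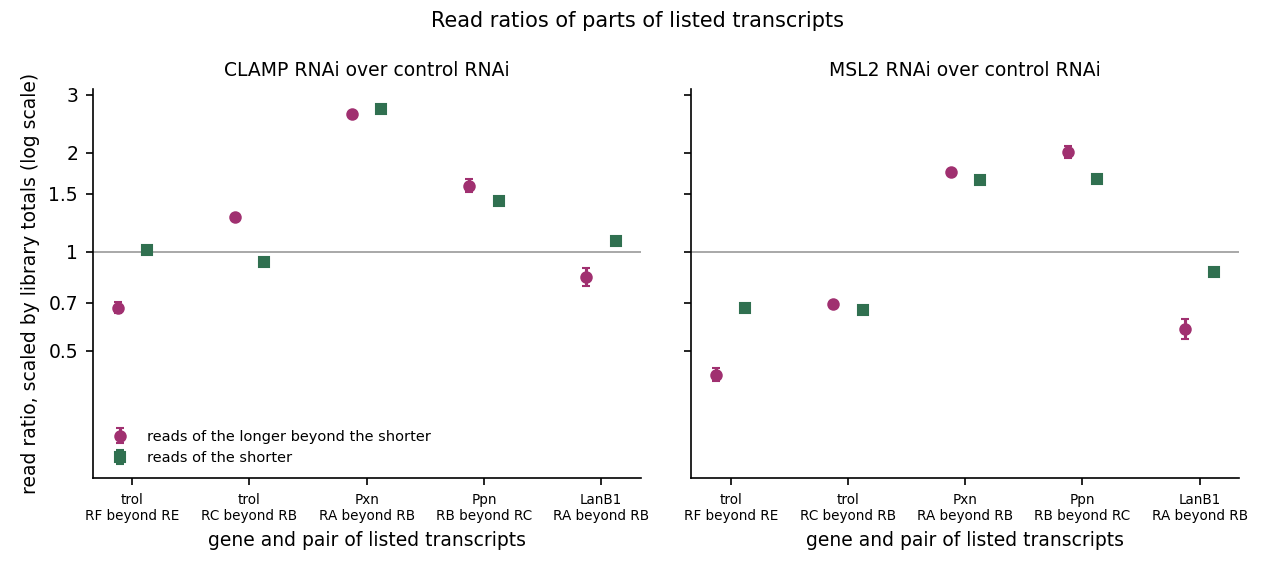
Read ratios to control, scaled by library totals, on a log axis for pairs of listed transcripts of trol, Pxn, Ppn and LanB1. Circles are reads of the longer transcript beyond the shorter one, squares are reads of the shorter one, and bars are exact 95% counting intervals. In trol the circle of RF beyond RE lies at 0.677 after CLAMP RNAi while that of RC beyond RB lies at 1.28.

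Genes that make, secrete, cut or bind the matrix were read beside these, from lists chosen with earlier results of the libraries known. Their counts stand beside the shares over all genes given above. Of 16 expressed genes for collagen processing and secretion, 0 were 1.5-fold higher and 0 lower in either comparison with control, and the medians were 0.04 after MSL2 RNAi and −0.02 after CLAMP RNAi. The most abundant, Calr, the calreticulin chaperone gene, had an RPKM of 887 in MSL2 RNAi, 745 in CLAMP RNAi and 752 in control. PH4alphaEFB encodes the main fly prolyl 4-hydroxylase alpha subunit, which acts on collagen. Picked after its values were seen, it had 113, 157 and 109, so that like SPARC it was highest after CLAMP RNAi.

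Matrix proteases and their inhibitors were few but included wide differences. Mmp1, a matrix metalloproteinase gene and the most abundant of the list, had an RPKM of 50.8 in MSL2 RNAi, 96.8 in CLAMP RNAi and 66.9 in control. Reck encodes a membrane-anchored protein known in mammals as an inhibitor of such proteases. Its RPKM was 4.69, 17.8 and 9.50, lowest after MSL2 RNAi and highest after CLAMP RNAi. Its log2 ratio was 0.90 for CLAMP RNAi over control and −1.90 for MSL2 RNAi over CLAMP RNAi. Of 5 expressed genes, 0 were 1.5-fold higher and 1 lower after MSL2 RNAi, and 1 higher and 0 lower after CLAMP RNAi. The medians were −0.41 and −0.08. With so few genes the median after CLAMP RNAi turned sign with the level filter, at 0.23 for a mean RPKM of 5 or more and 0.11 without a filter.

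Receptor genes lay below control for 8 of 9 after MSL2 RNAi and 7 of 9 after CLAMP RNAi, where 3994 and 4693 of all 7485 genes did. Among the 9, mys and mew (picked after its values were seen) are X-linked and stood at −0.31 and −0.45 after MSL2 RNAi. Of the 1292 X-linked genes, 1159 lay below control in that comparison, with a median of −0.33. Of the 9, 1 was 1.5-fold lower and 0 higher in each comparison with control, with medians of −0.27 after MSL2 RNAi and −0.29 after CLAMP RNAi. Without a level filter these medians were −0.23 and −0.09. The 1 gene was scb, an integrin alpha subunit gene, after MSL2 RNAi (RPKM of 6.06, against 15.7 in control) and Itgbn, an integrin beta subunit gene, after CLAMP RNAi (1.48, against 10.2 in control). The most abundant receptor gene, the X-linked mys, encodes the main integrin beta subunit and had 76.5, 88.8 and 94.8 in MSL2 RNAi, CLAMP RNAi and control.

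Among 9 expressed genes of other matrix proteins, Hml was 1.5-fold higher in both comparisons, with an RPKM of 29.0 in MSL2 RNAi, 30.0 in CLAMP RNAi and 14.9 in control. Hml encodes hemolectin, a large clotting protein of blood cells, and is also 1 of the 12 plasmatocyte-type markers above. The laminin alpha gene wb was the 1 gene 1.5-fold lower after MSL2 RNAi, at a log2 ratio of −0.61 beside 0.04 after CLAMP RNAi, and 0 were lower after CLAMP RNAi. Glt, which encodes glutactin, a basement membrane glycoprotein, was the most abundant at 975, 1296 and 927. The medians of the list were −0.01 and 0.04.

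**Figure D5:**
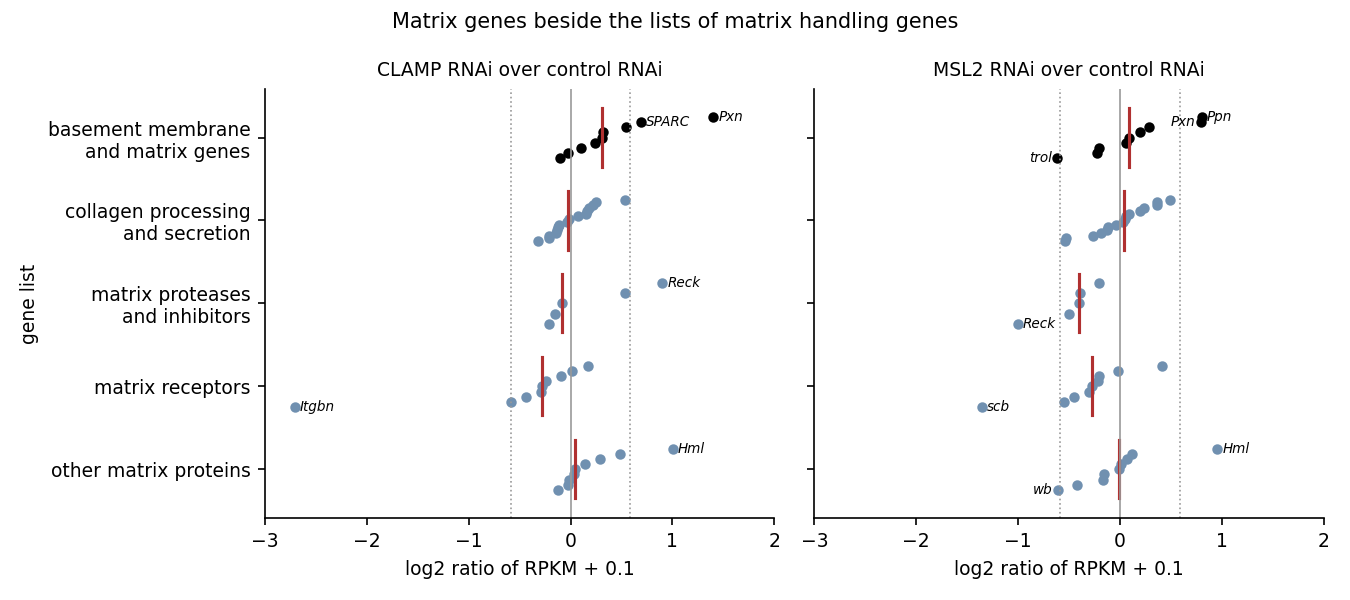
Log2 ratio of RPKM plus 0.1 of each expressed gene (point) in the set of 9 matrix genes and in the lists of matrix handling genes, for CLAMP RNAi over control RNAi and MSL2 RNAi over control RNAi. Vertical bars are list medians, dotted lines mark 1.5-fold, and genes past them are named. The matrix genes have a median of 0.31 after CLAMP RNAi and 0.09 after MSL2 RNAi, while the receptors have −0.29 and −0.27.

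The genes closest in pattern to Pxn and Ppn were less abundant than either. Likeness was the distance between log2 profiles over the 3 libraries, each centred on its own mean, among 6428 other genes with a mean RPKM of 5 or more. Nearest to Pxn were the noncoding CR34660 (distance 0.29), the antifungal peptide gene Drs (0.35) and the alkaline phosphatase gene Alp4 (0.39). Drs had an RPKM of 6.98 in MSL2 RNAi, 8.76 in CLAMP RNAi and 4.65 in control. Nearest to Ppn were CG14961 (0.07), CG4611 (0.08) and CG12581 (0.11). With 3 libraries, many genes can lie close in such a profile.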

How the data were processed

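Each deposited file lists 22353 transcripts with columns for RPKM, reads, transcript length and library total. The authors' RPKM equals the deposited count divided by length and total. The submitters' processing notes name Bowtie and dm3. Counting tool, annotation and strandedness: not given in the sources used here. Deposited counts are whole reads per transcript, and reads in shared exons count for each isoform.

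The transcript with the most reads on average stood for its gene. Symbols, arms and gene order came from an annotation table of Release 6, which differs from dm3, so no coordinates are given. Locus tags matched 13783 genes and unique synonyms 749. Log2 ratios used RPKM plus 0.1. With 1 library per group no count model could be fitted, so fixed rules of size (1.5-fold, 2-fold) describe genes averaging an RPKM of 1 or more. Read ratios have exact Clopper-Pearson intervals and levels exact Poisson intervals (scipy 1.17.1, Python 3.11.15). The ratio code was tested on simulated data. Named beyond the 10 genes are the RNAi targets, the most abundant gene of each list, genes of the matrix handling lists at least 1.5-fold from control at a mean RPKM of at least 5, and the 3 nearest in pattern to the most changed gene in each comparison with control. Members and lists were chosen with earlier results of these data known. Other names were picked after their values were seen, and the text says so. The name of 1 germline marker matched more than 1 gene, and it was not analysed here. Alternatives changed pseudocount, filter, transcript, scaling and size rule.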

Additional observations from a re-analysis of the deposited data

How the results depend on the processing

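The medians and counts of the expressed matrix genes (9, or all 10 with Ndg where no level filter was set) were recomputed under 9 other settings. So was the distance of trol from the X-linked median. Of these 86 values, 79 stayed close. Close means within 1.5 times for a count, within the 95% order-statistic interval for a median and within the counting interval for trol. Over 9 genes the interval of a median is wide, from −0.22 to 0.79 after MSL2 RNAi, so closeness is a loose mark for medians. The median after CLAMP RNAi lay between 0.31 and 0.36, after MSL2 RNAi between 0.06 and 0.11, and for MSL2 RNAi over CLAMP RNAi between −0.34 and −0.26 over the 9 genes. Over the 10 genes without a level filter they were 0.31, 0.14 and −0.19. Under a 2-fold rule, 1 gene (Pxn) remained higher after CLAMP RNAi, 0 higher and 0 lower after MSL2 RNAi, and 0 lower for MSL2 RNAi over CLAMP RNAi. With the mean RPKM over all listed transcripts, 0 genes were 1.5-fold lower after MSL2 RNAi, since trol was at −0.58, and trol lay −0.25 from the X-linked median. Without a level filter it lay −0.41 from it, because the median then includes genes of few reads. Of 216 single log2 ratios, 3 changed their side of the 1.5-fold rule. Ppn after CLAMP RNAi reached 0.60 with the autosomal median set to 0, and trol for MSL2 RNAi over CLAMP RNAi stood at −0.58 with the mean over transcripts. The sign of trol after CLAMP RNAi turned to 0.03 with the autosomal median set to 0 and to 0.01 under upper quartile scaling. The largest shift that either scaling gave to a comparison was 0.08 on the log2 scale. Of 64 values of the 8 medians of the matrix handling lists against control, 6 turned sign. Besides those of the proteases after CLAMP RNAi, given with that list, collagen processing after CLAMP RNAi (−0.02) turned to 0.03 with the autosomal median set to 0 and 0.01 under upper quartile scaling. Other matrix proteins after MSL2 RNAi (−0.01) turned to 0.01 under upper quartile scaling and 0.0036 without a level filter. No paired analysis was possible because each group compared has 1 library. Depth limits Ndg alone among the 10 genes, whereas the lack of a second culture limits all of them.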

Other observations

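The nearest expressed genes on each side of the 10 genes, 18 beside Col4a1 and vkg themselves, had a median log2 ratio to control of −0.08 after MSL2 RNAi and −0.05 after CLAMP RNAi. At least 1.5-fold higher were 2 of 18 after MSL2 RNAi and 0 of 18 after CLAMP RNAi, and 2 of 18 were lower in each. Over all genes with a mean RPKM of 1 or more, 2.53% were higher and 5.32% lower after MSL2 RNAi. After CLAMP RNAi these shares were 1.5% and 3.86%. With 18 genes, such small counts cannot be set apart from these shares. The neighbours of Pxn, SPARC, Ppn and trol are named here, as are all others at least 1.5-fold from control, picked after their values were seen. Beside Pxn, MEP-1 stood at −0.12 after MSL2 RNAi and −0.07 after CLAMP RNAi, and CG16985 at −0.35 and 0.12. Beside SPARC, His2Av stood at 0.28 and 0.05 and Rb97D at 0.06 and −0.04. Beside Ppn, CG31051 stood at 0.90 and 0.54, close to the 0.80 and 0.54 of Ppn itself, with an RPKM of 5.53 in MSL2 RNAi, 4.28 in CLAMP RNAi and 2.90 in control, while mIF2 on the other side was at −0.05 and −0.13. Beside trol, CG13760 stood at −0.57 and 0.04 and boi at −0.22 and 0.10, both on the X. Ldh, the lactate dehydrogenase gene, is the nearest expressed gene on one side of LanA, with 8 genes between them, and stood at 0.95 and −0.54. The lower ones were Prx6c, the nearest expressed gene on one side of Ndg with 20 genes between them, at −1.43 and −1.24, and CG14042, beside Col4a1, at −0.70 and −0.87. Prx6c had an RPKM of 7.28 in MSL2 RNAi, 8.37 in CLAMP RNAi and 19.8 in control.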
